A study of Mus musculus with 8 samples.

Results

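The 34 genes described here encode the enzymes of glycolysis, the transporters and regulators that feed and steer it, and genes of the response to low oxygen. They were chosen by gene symbol with earlier results of these data known. Counts and medians set beside all genes tested therefore describe the list and are no independent support. Every probe that the platform annotation gives to such a symbol, older aliases included, was read from the non-normalized table. Of the 34 genes, 30 had at least 1 probe, with 49 probes in all, and 26 entered the tests among 8816 tested genes or unnamed probes. Gpi1, Eno1, Ldhb and Ankrd37 had no probe under their own name and were not analysed here. Pfkfb3, Bnip3, P4ha1 and Car9 had probes, but none was above background on 2 arrays. A probe is called above background where its deposited detection p-value is under 0.01. A probe annotated to Eno1b, a near-identical copy of the enolase gene Eno1, cannot tell the copies apart. Its normalized log2 intensity averaged 8.07 in tNT lines and 7.95 in NT lines.

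Bead arrays (Illumina) were hybridised with RNA of 8 lines of mouse embryonic stem cells, each on its own array. Tetraploid nuclear transfer gave the 6 tNT lines, labelled as tetraploid, and plain nuclear transfer gave the 2 NT lines, labelled as not tetraploid. In nuclear transfer an enucleated egg reprogrammes the nucleus of a body cell, and by its title the study put 2 such nuclei into the same egg cytoplasm. All 8 lines are labelled as mixed strain and as prepared by double sedimentation, a term that the labels do not explain. The tNT lines 1 to 6 carry the numbers 17, 19, 25, 29, 18 and 25, read here as passage, and the NT lines carry none. No label names a donor cell, a feeder layer, a culture medium or an oxygen level. Each line is 1 derivation, and nothing says that RNA came from more than 1 culture of a line, so the p-values below cover line-to-line spread, part of which may be technical.

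Glycolysis splits glucose into pyruvate in the cytosol, and lactate dehydrogenase then turns pyruvate into lactate. Mouse embryonic stem cells are known to use this route heavily even when oxygen is present. At low oxygen the transcription factor HIF-1, a dimer with Hif1a as its regulated subunit, escapes breakdown and raises the transcription of many glycolytic genes, of the glucose transporter Slc2a1 and of genes such as Vegfa, while prolyl hydroxylases of the Egln family mark Hif1a for breakdown when oxygen is plentiful. Hif1a itself is controlled mostly at the protein level, which these arrays do not measure.

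All 9 embryonic stem cell markers examined, among them Pou5f1, Sox2, Nanog and Zfp42, were above background on all 8 arrays. The arrays held 25697 probes, and 10449 to 10969 of them passed the detection limit on a given array. Values below are normalized log2 intensities unless stated otherwise, and a difference of 1 is a 2-fold difference. Since quantile normalization equalises the arrays, a difference in total RNA content per cell cannot be seen, and levels of different genes are not compared because each probe has its own brightness. In such bulk RNA, fewer cells of a type and less RNA per cell cannot be told apart.

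Among the glycolytic enzymes, 1 of the 15 tested differed between the groups. Eno3, the enolase isoform best known from muscle, fell in tNT lines. Its deposited intensities were 244.5, 271.1, 265.4, 315.2, 270.4 and 244.8 in tNT lines 1 to 6 and 499.4 and 487.1 in NT lines 1 and 2. Every tNT line lay far below both NT lines, and the highest tNT value stood well short of the lower NT value. After normalization the tNT lines averaged 7.51 ± 0.27 for Eno3 (SD, n = 6), against 8.67 ± 0.03 for the NT lines (SD, n = 2), which is 2.23-fold lower in tNT lines (limma, log2 difference -1.15, SE 0.19, adjusted p = 0.0198). Over all 8816 tested, 0.964% were called lower and 0.896% higher. The call ended without NT line 1 or without NT line 2 (adjusted p = 0.227 and 0.255), where the single NT line left is assumed to vary like the others, although the difference stayed at -1.18 and -1.13.

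**Figure D1:**
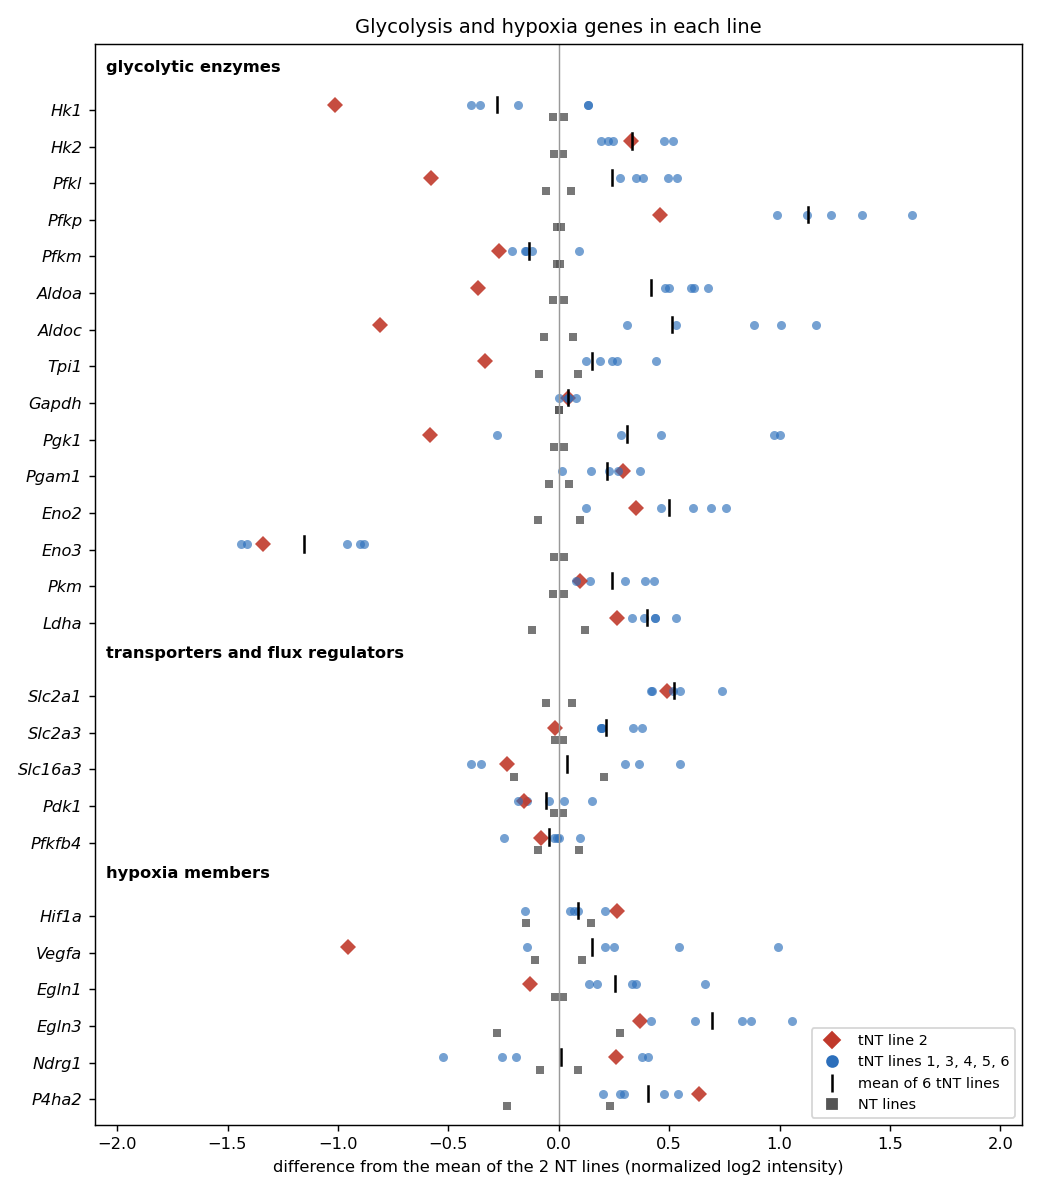
Differences of each line from the mean of the 2 NT lines, in normalized log2 intensity on the horizontal axis, for the 26 tested genes in rows. Diamonds are tNT line 2, circles the other 5 tNT lines, black ticks the mean of 6 tNT lines and squares the NT lines. Eno3 lies left of both NT lines in all 6 tNT lines, Pfkp and Slc2a1 lie right of them, and tNT line 2 lies left of all other lines in Aldoc, Vegfa, Pgk1, Pfkl and Aldoa, with the widest gaps for their spread in Pfkl and Aldoa.

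None of the remaining enzymes passed the test. Of the 15, 12 had a higher mean in tNT lines. The median difference of the 15 was 0.24, against 0.01 over all genes tested, and 50.9% of all genes tested had a higher mean there. In 5 enzymes, Hk2, Pfkp, Eno2, Pkm and Ldha, all 6 tNT values lay above both NT values, and of all genes tested 11.3% did so. Eno3 was the 1 enzyme with all tNT values below both NT values, against 10.4% of all genes tested. At an unadjusted p under 0.05, 4 enzymes were higher in tNT lines (Hk2, Pfkp, Eno2 and Ldha), against 9.36% of all genes tested, and Eno3 was lower, against 8.6%.

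Pfkp, the platelet-type isoform of phosphofructokinase, which catalyses the committed step of glycolysis, had the widest positive difference. It stood at 10.84, 9.92, 11.07, 10.59, 10.46 and 10.70 in tNT lines 1 to 6 and at 9.48 and 9.46 in NT lines 1 and 2. All tNT lines were above both NT lines, with tNT line 2 nearest to them. The tNT mean was 10.60 ± 0.39 (SD, n = 6) and the NT mean 9.47 ± 0.01 (SD, n = 2), a log2 difference of 1.13 with a 95% confidence interval of 0.57 to 1.69, and it missed the threshold (limma, adjusted p = 0.0569). It passed without tNT line 2 (difference 1.26, adjusted p = 0.00548). A second Pfkp probe gave 8.27, 7.54, 8.29, 8.23, 7.85 and 8.26 in tNT lines and 7.09 and 6.95 in NT lines, and the remaining Pfkp probe was above background on no array.

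The other phosphofructokinase isoforms had smaller differences that did not pass. Pfkl, the liver-type subunit, differed by 0.24 (95% interval -0.35 to 0.83, limma, adjusted p = 0.684), but its second and dimmer probe by -0.39 and the mean of both by -0.072. Pfkm, the muscle-type subunit, differed by -0.13 (95% interval -0.41 to 0.14, limma, adjusted p = 0.613). No test was made between the isoforms.

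Ldha, the lactate dehydrogenase subunit that favours lactate formation, was 13.84, 13.66, 13.84, 13.93, 13.73 and 13.79 in tNT lines and 13.28 and 13.52 in NT lines. The groups did not overlap, yet the lowest tNT line lay close to NT line 2, and the difference of 0.40 ± 0.12 (SE) did not pass (limma, adjusted p = 0.123). The hexokinase Hk2, which traps glucose in the cell, differed by 0.33 (limma, adjusted p = 0.211). Eno2, the neuronal enolase isoform, differed by 0.50 (limma, adjusted p = 0.168), so its direction was opposite to that of Eno3. The Eno2 probe was above background on all 8 arrays but dim. Its deposited intensities were 128.8 to 185.3 in tNT lines and 138.8 and 144.2 in NT lines, where array medians were 104.5 to 124.1. Before normalization its groups overlapped, with tNT line 5 below both NT lines. Pkm, pyruvate kinase, differed by 0.24 (limma, adjusted p = 0.395) and Pgam1, phosphoglycerate mutase, by 0.22 (limma, adjusted p = 0.399). Hk1, the hexokinase of most tissues, differed by -0.28 (limma, adjusted p = 0.636).

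Gapdh shows a limit of these values. Its brightest probe read between 22748 and 28467 in tNT lines and 26187 and 24816 in NT lines before normalization. Quantile normalization replaces such a bright probe by a value set by its rank, and Gapdh then lay between 14.62 and 14.70 on every array.

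Sequence before the transcript start was read for 5 enzymes on which these results turn: Eno3, Pfkp and Ldha for the comparison of the groups, and Aldoa and Pgk1 for the tNT line 2 values given below. Each is the 250 bases before an annotated start, 5′ to 3′ on the gene's strand, from RefSeq on build GRCm38.p6. Capitals mark every match to the core that HIF-1 is known to bind, ACGTG or GCGTG, on either strand. The windows are chr11:70656926-70657175 (plus strand) for Eno3, chr13:6648772-6649021 (minus strand) for Pfkp, chr7:46845554-46845803 (plus strand) for Ldha, chr7:126799255-126799504 (minus strand) for Aldoa and chrX:106186850-106187099 (plus strand) for Pgk1.
Eno3: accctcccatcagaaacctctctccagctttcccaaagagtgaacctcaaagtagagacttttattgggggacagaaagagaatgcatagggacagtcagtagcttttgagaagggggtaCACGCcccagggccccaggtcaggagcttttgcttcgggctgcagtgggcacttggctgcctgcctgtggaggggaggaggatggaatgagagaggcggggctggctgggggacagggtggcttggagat
Pfkp: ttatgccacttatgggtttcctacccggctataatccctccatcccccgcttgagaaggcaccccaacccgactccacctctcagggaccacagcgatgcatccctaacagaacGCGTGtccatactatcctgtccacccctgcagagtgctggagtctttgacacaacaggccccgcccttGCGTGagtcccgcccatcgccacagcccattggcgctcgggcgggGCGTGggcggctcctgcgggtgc
Ldha: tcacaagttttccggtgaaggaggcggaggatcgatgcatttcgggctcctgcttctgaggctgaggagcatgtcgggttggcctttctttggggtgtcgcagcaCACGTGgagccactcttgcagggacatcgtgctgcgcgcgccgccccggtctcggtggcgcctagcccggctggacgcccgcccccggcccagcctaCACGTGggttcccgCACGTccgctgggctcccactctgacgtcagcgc
Aldoa: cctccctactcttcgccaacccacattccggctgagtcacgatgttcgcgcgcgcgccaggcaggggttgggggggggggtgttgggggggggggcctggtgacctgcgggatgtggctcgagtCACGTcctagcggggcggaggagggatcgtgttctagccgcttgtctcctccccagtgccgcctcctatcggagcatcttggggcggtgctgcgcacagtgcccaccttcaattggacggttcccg
Pgk1: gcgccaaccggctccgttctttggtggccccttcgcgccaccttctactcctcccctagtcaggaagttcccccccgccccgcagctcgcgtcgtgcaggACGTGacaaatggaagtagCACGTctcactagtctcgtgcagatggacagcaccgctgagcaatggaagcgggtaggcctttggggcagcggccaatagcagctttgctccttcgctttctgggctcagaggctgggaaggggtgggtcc
Eno3 holds 1 match, to GCGTG, and Pfkp holds 3, all to GCGTG. Ldha holds 5 matches to ACGTG. Of these, 4 form overlapping pairs of a forward and a reverse match, each pair being the palindrome CACGTG, a sequence that Myc-family proteins are also known to bind. Aldoa holds 1 match to ACGTG and Pgk1 holds 2. A match describes these letters and shows no binding.

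Across the 34 genes, RefSeq windows were found for 32, with 46 windows because some genes have several starts, and 37 windows held a match. By gene, 22 of 24 tested genes of the group with a window (91.7%) held ACGTG or GCGTG in at least 1 of them, against 62.2% of all tested genes with a window. ACGTG alone was held by 9 of 9 hypoxia genes with a window, tested or not, by 7 of 18 enzymes and by 25.8% of tested genes. Vegfa held it only in the window chr17:46025164-46025413 and had no match in its other window. Genes with several windows have more chances of a match. Of all 32851 windows in the table, 38.6% held either form and 16.6% held ACGTG. Many of these genes are listed because they are known HIF-1 targets, so the share describes the list and is no result of the arrays. The enzymes Gpi1, Tpi1 and Eno2 had no match in their windows, and Slc2a3 and Ndrg1 are named only.

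**Figure D2:**
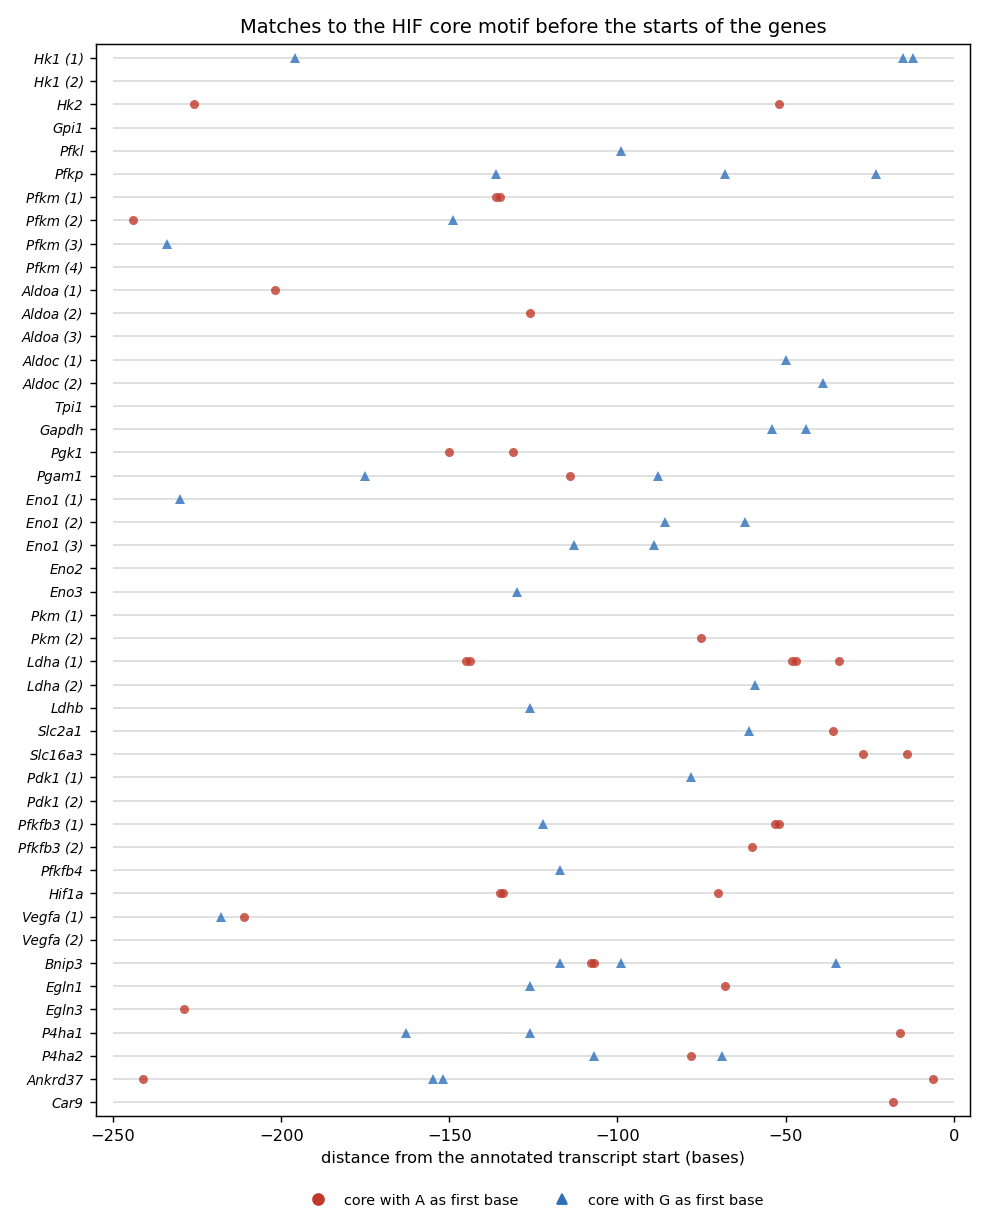
Positions of matches to the HIF core in the 250 bases before each annotated start, with distance from the start in bases on the horizontal axis and 1 row per start (numbered where a gene has several). Circles have A and triangles G as the first base of the core, and 9 of the 46 rows are without a match, among them Tpi1 and Eno2.

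Among transporters and flux regulators, none of the 5 tested passed between tNT and NT lines (limma). Of the 5, 1, Slc2a1, had an unadjusted p under 0.05 in the higher direction, against 9.36% of all genes tested. Slc2a1, the main glucose transporter of growing cells, was 12.98, 12.73, 12.76, 12.67, 12.66 and 12.79 in tNT lines and 12.18 and 12.30 in NT lines. All tNT lines were above both NT lines, as in 11.3% of all genes tested, and close to each other. The difference was 0.52 (95% interval 0.25 to 0.80), 1.44-fold, and missed the threshold (limma, adjusted p = 0.0660), while it passed without tNT line 2 (adjusted p = 0.0379). Slc2a3, a glucose transporter of high affinity, differed by 0.21 (limma, adjusted p = 0.429). Pdk1, the kinase that keeps pyruvate out of the citrate cycle, differed by -0.06 (95% interval -0.34 to 0.22, limma, adjusted p = 0.848). Pfkfb4, which sets the level of a phosphofructokinase activator, differed by -0.04 (limma, adjusted p = 0.892). The lactate exporter Slc16a3 was above background on 3 tNT arrays and 1 NT array and differed by 0.04 (limma, adjusted p = 0.960).

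Of the hypoxia genes, 6 of 10 were tested and none passed (limma), although 2 of the 6, Egln3 and P4ha2, had an unadjusted p under 0.05 in the higher direction, against 9.36% of all genes tested. All 6 had a higher mean in tNT lines at their brightest probe, with a median difference of 0.20, against 50.9% of all genes tested with a higher mean. For Egln1, which entered the tests through 3 tNT arrays and no NT array, the filter itself favours that direction. Its groups overlapped, and the difference of 0.25 did not pass (95% interval -0.16 to 0.67, limma, adjusted p = 0.517). The means of Egln1 differed at least 1.07-fold, a figure that takes no account of the spread between lines. Egln3, the prolyl hydroxylase that HIF itself induces, was 8.49, 7.81, 7.85, 8.05, 8.31 and 8.27 in tNT lines and 7.72 and 7.16 in NT lines. All tNT lines were above both NT lines, but the NT lines lay far apart, and the difference of 0.69 ± 0.21 (SE) did not pass (limma, adjusted p = 0.127). P4ha2, which hydroxylates collagen, was 6.80 to 7.23 in tNT lines and 6.36 and 6.83 in NT lines, so that the groups overlapped (limma, difference 0.40, adjusted p = 0.234). Hif1a was 7.02 to 7.44 in tNT lines and 7.32 and 7.03 in NT lines (limma, difference 0.09, 95% interval -0.23 to 0.40, adjusted p = 0.803). Ndrg1, a stress-induced gene, differed by 0.01 (limma, adjusted p = 0.986). Vegfa, the angiogenic growth factor, differed by 0.15 with a 95% interval of -0.75 to 1.05 (limma, adjusted p = 0.888), and its tNT lines ranged widely, between 7.05 and 9.004. Another Vegfa probe, also above background on all 8 arrays, went the other way with a difference of -0.14.

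Without tNT line 2, 4 of the 26 genes passed, and 3.16% of all genes tested were then called higher and 3.44% lower. That line was singled out with its low values known, so these p-values show how much rests on it and are no support for a difference. The 4 were Eno3, lower, and Pfkp, Aldoa and Slc2a1, higher in tNT lines. Aldoa, the aldolase of most tissues, did not pass with all 6 tNT lines (limma, log2 difference 0.42, adjusted p = 0.428) and had a difference of 0.57 without line 2, its lowest tNT value (adjusted p = 0.0185). The median difference of the enzymes was 0.33 without that line and the median of the hypoxia genes 0.34.

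**Figure D3:**
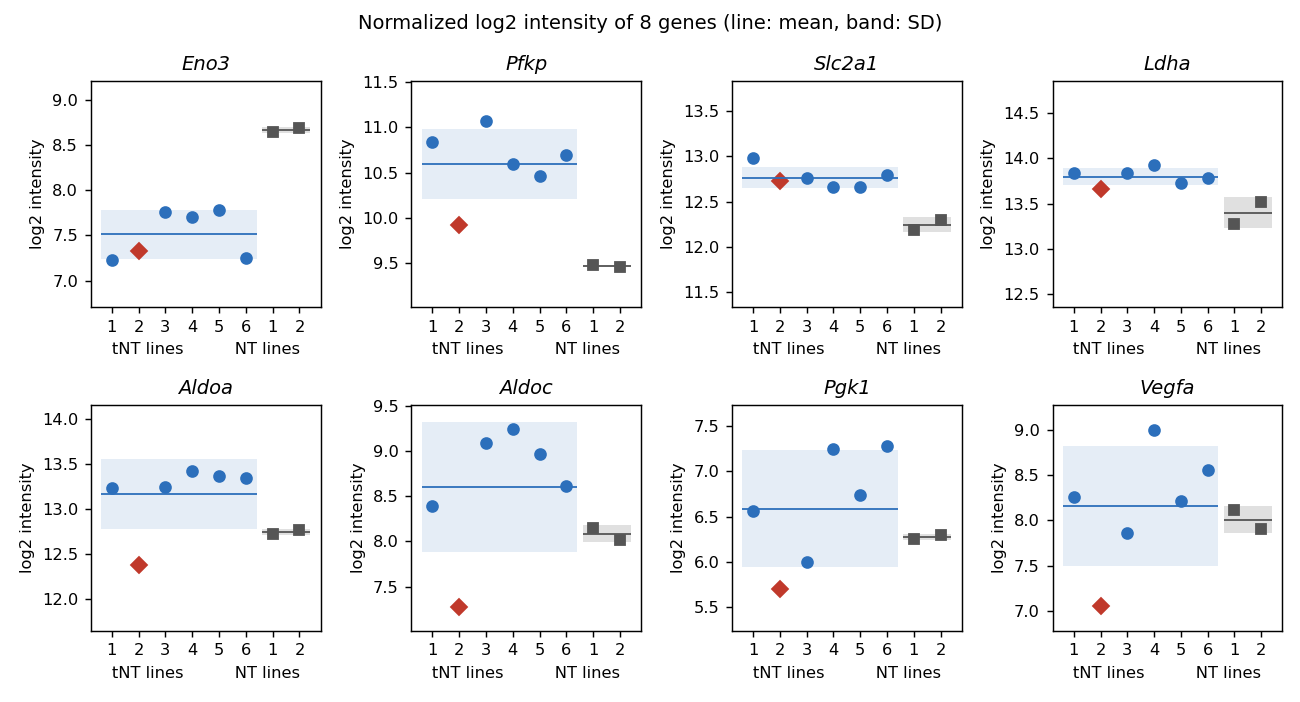
Normalized log2 intensity (vertical axis) of 8 genes in tNT lines 1 to 6 and NT lines 1 and 2 (horizontal axis). Points are single arrays, the diamond is tNT line 2, horizontal lines are group means and bands are the SD of 6 tNT or 2 NT lines. Eno3 is lower in every tNT line, Pfkp, Slc2a1 and Ldha are higher in every tNT line, and in Aldoa, Aldoc, Pgk1 and Vegfa tNT line 2 lies below all other lines.

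Line 2 of the tNT group was then set against the other 5 tNT lines. This line was singled out with earlier results of these data known and has no replicate, so the values are a description without a test. Aldoc, another aldolase isoform, was 7.28 in tNT line 2, against 8.39, 9.09, 9.25, 8.97 and 8.62 in tNT lines 1, 3, 4, 5 and 6, and 8.15 and 8.02 in NT lines. Vegfa was 7.05 in tNT line 2, against 8.26, 7.86, 9.004, 8.22 and 8.55 in the other tNT lines, and 8.11 and 7.90 in NT lines. In both genes tNT line 2 was below all 7 other lines.

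Aldoc was 3.00-fold lower in tNT line 2 than the mean of the other tNT lines, and Vegfa was 2.51-fold lower. Pgk1, phosphoglycerate kinase, an enzyme that makes ATP, was lower by 1.07 on the log2 scale, at 5.70 in tNT line 2, against 6.56, 6.00, 7.25, 6.74 and 7.28 in the other tNT lines. Line 3 of the tNT group was also below both NT lines (6.25 and 6.30) in Pgk1. Without background correction the Pgk1 difference shrank to -0.52 on the log2 scale, against -1.07 with it.

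Pfkl was 10.90 in tNT line 2, against 11.97, 11.75, 12.01, 11.83 and 11.86 in the other tNT lines and 11.42 and 11.53 in NT lines. Aldoa was 12.38 in tNT line 2, against 13.23, 13.25, 13.43, 13.36 and 13.35 in the other tNT lines and 12.72 and 12.77 in NT lines. In both genes the other 5 tNT lines were close together, with an SD of 0.11 for Pfkl and 0.08 for Aldoa, and tNT line 2 was lower by 0.99 and 0.94. A second Pfkl probe, near background, did not show this and differed by 0.22.

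Pfkp was lower by 0.81 in tNT line 2 than in the other tNT lines, and its second probe was lower by 0.64. Tpi1, triosephosphate isomerase, was lower by 0.59 at its brightest probe and by 0.65 at a second, while the dimmest probe differed by -0.05. Hk1 was not above background in tNT line 2 and was at least 1.54-fold lower there after background correction, but its difference was -0.32 without that correction, short of the limit of 0.5 used below. A second Vegfa probe was lower by 0.89.

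In all, 8 of the 26 genes, 7 enzymes and Vegfa, were lower by 0.5 or more on the log2 scale in tNT line 2, and none was higher by that much. Over all genes tested 11.3% were lower and 9.41% higher by that much. With a limit of 1, 3 of the 26, Aldoc, Pgk1 and Vegfa, were lower, against 2.03% of all genes tested. Pgk1 did not meet this limit without background correction. Line 2 had the lowest tNT value in 13 of the 26, against 26.2% of all genes tested, and the lowest value of all 8 lines in 9, against 20%. Both counts include Egln1, for which the detection filter itself favours a low value in line 2. It had the highest tNT value in 2, Hif1a and P4ha2, against 26.8% of all genes tested. The median difference was -0.22 over the enzymes, -0.12 over transporters and regulators and -0.09 over the hypoxia genes, against 0.00 over all genes tested. The hypoxia median turned to 0.21 among genes above background on all 8 arrays, where Egln1 does not enter.

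Other steps of the same chain differed by less than 0.5. In tNT line 2 Hk2 differed from the other tNT lines by 0.00, Pgam1 by 0.09, Ldha by -0.16, Pkm by -0.17 and Slc2a1 by -0.04. The hypoxia genes differed among themselves. Vegfa, Egln1 and Egln3 had their lowest tNT value in line 2, with differences of -1.33, -0.46 and -0.39. Hif1a and P4ha2 had their highest tNT value there, with differences of 0.21 and 0.28, while Ndrg1 differed by 0.30 at its brighter probe and by -0.20 at another that was also above background on all 8 arrays. Egln1 entered the tests through 3 other tNT arrays and was not above background in tNT line 2, so the filter itself favours a low value there. It was at least 1.11-fold lower than the mean of the other tNT lines, a figure that takes no account of their spread.

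**Figure D4:**
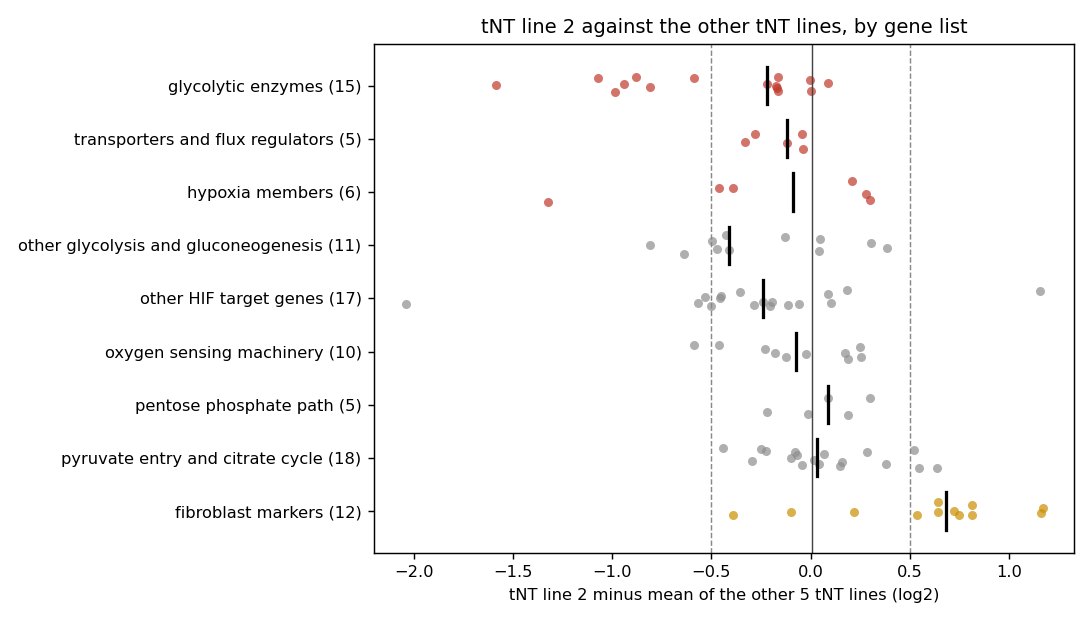
Difference of tNT line 2 from the mean of the other 5 tNT lines (log2, horizontal axis) for each tested gene of 9 lists, with the number tested in brackets. Black ticks are list medians, the solid line is the median of all genes tested and dashed lines mark 0.5. Enzymes and other HIF targets extend to the left, with Ak4 at -2.04, and 9 of 12 fibroblast markers lie right of 0.5.

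Markers of fibroblasts, a possible feeder cell, moved with tNT line 2 in the other direction. Of 12 tested fibroblast markers, 9 were higher by 0.5 or more in tNT line 2, with a median difference of 0.68. Their summed linear intensity was 7462 in tNT line 2, 5001 to 6063 in the other tNT lines and 6406 to 6959 in NT lines. The defining markers Col1a2, Col3a1, Pdgfra, Pdgfrb and Postn were above background on no array. The part of other cell types in the enzyme values of tNT line 2 was not tested. The summed intensity of the stem cell markers was 55042 in tNT line 2, 55075 to 63318 in the other tNT lines and 52776 to 53862 in NT lines. Of these 9 markers Klf4, Esrrb and Nanog had their lowest tNT value in line 2, with differences of -0.92, -0.65 and -0.56 from the other tNT lines. Pou5f1 and Utf1 had their highest tNT value there, with differences of 0.39 and 0.28. Only Klf4, Esrrb and Nanog were lower in tNT line 2, and the median difference of the 9 was 0.08. The part of these markers in the enzyme values was not tested.

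At the other end, tNT line 4 had the highest tNT value in 11 of the 26 genes and the lowest in none, where 15.3% and 16.1% of all genes tested did so. Among the 11 were Aldoa, Aldoc, Tpi1, Ldha, Slc2a3 and Vegfa, each of which had its lowest tNT value in line 2. Relative to the NT mean, the median of the enzymes was 0.28, -0.27, 0.19, 0.48, 0.27 and 0.30 in tNT lines 1 to 6. The median of the hypoxia genes was 0.37, 0.26, 0.21, 0.46, 0.28 and 0.21 in the same lines. In tNT line 2, 7 of the 15 enzymes lay above the NT mean, among them Hk2, Pfkp and Ldha. Over all 8816 tested 4478 did, a similar share. Of the 6 hypoxia genes 4 lay above it in that line, all but Vegfa and Egln1. In the other tNT lines 11 to 13 of the 15 enzymes lay above it, and never Eno3. Over all 8816 tested, 4425 to 4639 lay above it in those lines.

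Lines 2 and 4 also differ in passage, 19 and 29. Over the 6 tNT lines no gene of the 26 had a slope with passage that passed, and 0% of all 8816 did (limma). At an unadjusted p under 0.05 there was none among the 26 and 4.44% of all genes tested. The steepest slopes were 0.08 log2 units per passage for Aldoc (limma, SE 0.05) and 0.08 for Vegfa (limma, SE 0.04).

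Neighbouring pathways were read from lists of other genes, none of which passed between tNT and NT lines (limma). Of 17 tested further HIF targets, 11 had a higher mean in tNT lines, against 50.9% of all genes tested, with a median of 0.12. Of the 17, 1, Plod2, had an unadjusted p under 0.05 in that direction, against 9.36% of all genes tested. Plod2, a collagen lysyl hydroxylase, differed by 0.68 (adjusted p = 0.115), Fam162a by 0.33 (adjusted p = 0.297) and Wsb1 by 0.30 (adjusted p = 0.454). Ak4, a mitochondrial adenylate kinase, was 8.91 in tNT line 2, against 10.88, 10.37, 11.38, 11.09 and 11.02 in tNT lines 1, 3, 4, 5 and 6, and 9.76 and 9.80 in NT lines. Line 2 was far below all other lines, 4.11-fold below the mean of the other tNT lines, while these 5 were all above both NT lines. With all 6 tNT lines Ak4 differed by 0.83 and did not pass (limma, adjusted p = 0.460). Ak4 and Plod2 passed when tNT line 2, their lowest tNT value, was left out (limma, differences 1.17 and 0.77, adjusted p = 0.0247 and 0.0320). In tNT line 2, 13 of the 17 were lower than the mean of the other tNT lines, against 49.5% of all genes tested, and 4 were lower by 0.5 or more, against 11.3%.

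Of 11 tested genes of other glycolysis and gluconeogenesis steps, 9 had a higher mean in tNT lines (median 0.24), against 50.9% of all genes tested. Pgm1, a phosphoglucomutase that links glycogen to glycolysis, differed by 0.57 (limma, adjusted p = 0.107), and Pdk3, a second pyruvate dehydrogenase kinase, by 0.43 (limma, adjusted p = 0.178). Both passed without tNT line 2, again their lowest tNT value (adjusted p = 0.0128 and 0.0430). The lactate dehydrogenase Ldhc differed by 0.24 and Pfkfb2 by 0.32, and neither passed.

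Oxygen sensing genes had lower means in tNT lines in 9 of 10, with a median of -0.15, and none had an unadjusted p under 0.05. Over all genes tested 4331 of 8816 had a lower mean there. Among the 10, Cul2, the scaffold of the ligase that breaks down Hif1a, differed by -0.35, Eloc by -0.24, Hif3a by -0.21 and Rbx1 by -0.17. Cul2 and Hif3a lay near background, above it on 4 and 1 tNT arrays and on both NT arrays. Of 18 tested genes of pyruvate entry and the citrate cycle, 12 had a lower mean in tNT lines (median -0.04). Of the 18, 2, Idh3a and Idh3g, had an unadjusted p under 0.05 in the higher direction, against 9.36% of all genes tested. These subunits of isocitrate dehydrogenase differed by 0.50 and 0.32 and did not pass (limma, adjusted p = 0.106 and 0.213). The 5 tested genes of the pentose phosphate path had a median of -0.09, with Rpia at -0.19 and Pgls at -0.17. In tNT line 2 the medians of the citrate cycle list and of the pentose phosphate list were 0.03 and 0.09, against -0.22 for the glycolytic enzymes.

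The 26 tested genes lie on 14 chromosomes. Chromosome 6 holds 5 of them, Hk2, Tpi1, Gapdh, Eno2 and Slc2a3, and its 398 tested genes had a median of 0.18 in tNT line 2 relative to the other tNT lines. Tpi1 differed by -0.59 at its brightest probe in tNT line 2, and the part of chromosome-wide shifts in this was not tested. Chromosome 2, which carries Pdk1, had a median of -0.22 there, and Pdk1 differed by -0.12. Chromosome 10, with Hk1 and Pfkl, had a median of -0.09, and chromosome 11, with Aldoc and Eno3, one of 0.05. Between tNT and NT lines the medians of chromosomes 11 and 13, which carry Eno3 and Pfkp, were 0.04 and 0.09.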

How the data were processed

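RNA of 6 tNT and 2 NT lines was hybridised as biotin-labelled cRNA to bead arrays. The deposited table holds a linear bead intensity per probe, neither background-subtracted nor normalized as its values show, and, per the file headers, a detection p-value. A second table holds the authors' processed log2 values, with 1 distribution in all columns. BeadStudio 3.2, lumi and RMA are listed, per the submitters' processing notes, without saying which made what. All sample columns were used.

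The neqc function (limma 3.58.1, R 4.3.3, offset 16) removed background and applied quantile normalization. A gene entered with a probe of detection p under 0.01 on at least 2 arrays, and its brightest probe stood for it. Groups were compared with lmFit and eBayes, 2-sided, Benjamini-Hochberg over all 8816, threshold 0.05. Symbols were updated through RefSeq (GRCm38.p6), which matched 23962 probes. For genes that no array of a group, or not tNT line 2, detected, "at least" folds use the higher of their own value and the lowest detected value per array. Such folds concern means and take no account of the spread between lines. Of 100 simulated 2-fold differences between the groups among 8816 genes, 85 were called, and for passage 45, with 13 and 6 false calls. The simulation drew independent noise of equal spread in every line, with no line standing apart as tNT line 2 does. These counts can therefore be too favourable for the genes described here.

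All members are named, and at most 4 genes of smallest p per further list. Members and lists were chosen with earlier results of these data known. Alternatives were the authors' values, other background settings, detection filters, every probe, variance models, array weights, each line left out and a block by line number. Python 3.11.15, pandas 2.3.3 and matplotlib 3.10.9 were used.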

Additional observations from a re-analysis of the deposited data

Results flagged for a closer look

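In 11 of 112 sets of 6 tNT values, 1 line stood apart by Dixon's ratio, the gap to the nearest value over the whole range of the 6, taken at its 95% critical value. Chance gives this in about 1 in 20 of independent sets, and these sets share the same 6 arrays. The line was tNT line 2 in 10 of the 11. That line was singled out and the lists were chosen with earlier results of these data known, so these counts are a description and no support. The share over all genes tested was not computed. Among the 26 glycolysis and hypoxia genes 2 were flagged, not far from 1 in 20, with tNT line 2 low in Aldoa (0.811) and Pfkl (0.768). Outside them tNT line 2 was low in Pgm1 (0.797), Nanog (0.672) and Esrrb (0.658). It was high in Rpia (0.846), Suclg1 (0.769), Rbx1 (0.675), Hba-a1 (0.660) and the fibroblast marker Thy1 (0.62501, barely past the critical value). Line 3 was low in Pdhb (0.676).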

How the results depend on the processing

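The number of the 26 genes called between tNT and NT lines was 1, and it was 3 without background correction, 3 with an offset of 50, 2 with every detected probe, 4 with a mean-variance trend, 6 with array weights and 0 to 4 when each line was left out. It was 0 without either NT line and 4 without tNT line 2. Eno3 was called in every setting that keeps both NT lines. Genes added by a setting were among Pfkp, Slc2a1, Ldha, Aldoa and Egln3. Over all genes 164 were called, and 1381 with array weights, 582 without tNT line 2, and 6 and 7 without NT line 1 or 2. The median of the hypoxia genes between the groups ranged from 0.13 to 0.34 when each line was left out. Their median for tNT line 2 was -0.09 and turned to 0.21 with genes above background on all 8 arrays, where 1 gene fewer enters.

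Directions that turned belong to genes that did not pass. Pfkl turned to -0.072 with the mean of its probes and Ndrg1 to -0.10 with array weights. Leaving out each line gave ranges of -0.17 to 0.24 for Slc16a3, -0.075 to 0.12 for Ndrg1, -0.019 to 0.37 for Vegfa, -0.14 to 0.049 for Pfkfb4 and -0.058 to 0.23 for Hif1a. The line numbers 1 and 2 occur in both groups, but same-numbered lines did not deviate together (correlations of 0.0411 and 1.7e-04 over genes). With 2 NT lines, the deviation of 1 is that of the other with its sign turned. The check therefore cannot tell whether same-numbered lines share more than a number. With the number as a block, which rests on lines 1 and 2 alone, 1 of the 26 and 157 of all genes were called, and Pfkl, Aldoc, Tpi1, Pgk1, Pfkfb4 and Vegfa had differences of -0.042, -0.25, -0.11, -0.15, 0.0061 and -0.35.

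The count lower by 0.5 in tNT line 2 was 7 to 10 over all settings. Hk1 there was -0.88, but -1.39 with the authors' values and -0.32 without background correction, as a value near background. The 8 arrays limit precision, and the brightest and dimmest probes are compressed by normalization and by background.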

Other observations

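Some genes outside the naming rule were picked after their values were seen. In tNT line 2, Hmox1, the heme oxygenase induced by oxidative stress and by HIF, was 2.23-fold higher than the mean of the other tNT lines, opposite to Ak4 in the same list. Line 2 had 10.65, against 8.89, 9.70, 9.85, 9.42 and 9.59 in tNT lines 1, 3, 4, 5 and 6, and 10.05 and 10.04 in NT lines. Line 2 was the highest of the 8 lines. In the citrate cycle list, Suclg1, a subunit of succinyl-CoA ligase, was 12.51 in tNT line 2, against 11.92, 11.98, 12.06, 11.98 and 12.01 in the other tNT lines, and 11.92 and 12.03 in NT lines. Dlat and Sdhd were also higher by 0.55 and 0.63 in tNT line 2 than in the other tNT lines. These are values of 1 array without a test.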
